A study of Mus musculus with 14 samples.

Results

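The 6 microRNA (miRNA) hairpins described here mark macrophage activation states and leukocyte identity and were measured in exosomes released by adipose tissue macrophages of obese and lean mice. They are mmu-mir-511, mmu-mir-690, mmu-mir-223, mmu-mir-142a, mmu-mir-150 and mmu-mir-342, written below without the species prefix. They were taken by name from a table of 539 hairpins, and all 6 have a row in it. The cells were CD11b+F4/80+ macrophages of the fat of C57BL/6 mice, held for 72 h in IMDM medium with 10% serum freed of exosomes, and the vesicles were spun out of that medium. The labels give 7 libraries from obese animals and 7 from lean ones, both of the same strain, tissue and culture. The sources used here do not say what made the animals obese. Ages are labelled 24-26 to 24-32 weeks in the obese group and 24-33 to 24-39 weeks in the lean group, with the upper bound 1 week higher for each sample listed, so age and obesity cannot be told apart if those labels hold. The labels do not tie libraries to animals, so p-values cover the spread between these libraries alone, which may be technical.

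A miRNA hairpin is cut into short mature strands, the 5p and 3p arms, and a mature strand represses messenger RNAs that pair with its seed, bases 2 to 8. Macrophages shift between an inflammatory state, driven by Toll-like receptors, and an alternative state, driven by interleukin-4. mir-511 lies within the gene of the mannose receptor CD206, a marker of the alternative state, and mir-690 has been described as cargo of vesicles from alternatively activated macrophages. mir-223 is abundant in myeloid cells and restrains inflammatory activation, mir-142a is found across blood cells, mir-150 rises as lymphocytes mature, and mir-342 is expressed in several leukocyte lineages.

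A hairpin value does not say which part of the hairpin its reads came from, so it need not stand for a mature strand. The mature strands are printed as products of the hairpins. They are given 5′ to 3′ from RefSeq on GRCm38.p6, with the seed in capitals. RefSeq gave a mature arm for each of the 6 hairpins, 9 arms in all; miR-511-5p and miR-150-5p are named only.

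miR-511-3p: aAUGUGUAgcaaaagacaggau

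miR-690: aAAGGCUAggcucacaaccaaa

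miR-223-5p: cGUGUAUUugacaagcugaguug

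miR-223-3p: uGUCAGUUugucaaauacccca

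miR-142a-5p: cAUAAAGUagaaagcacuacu

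miR-142a-3p: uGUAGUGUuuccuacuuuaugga

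miR-150-3p: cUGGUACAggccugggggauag

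miR-342-5p: aGGGGUGCuaucugugauugag

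miR-342-3p: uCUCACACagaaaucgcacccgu

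These 9 arms carry 9 different seeds, so no pair among them forms a seed family. None of the seeds recurred in another hairpin of the table, among the 497 hairpins for which RefSeq gave a mature strand. The guanine and cytosine content ran from 33.3% in miR-142a-5p to 63.6% in miR-150-3p.

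The comparison asks how the vesicle levels of these miRNAs differ between obese and lean macrophages. The values come from the authors' deposited table, where each hairpin has 1 log2 fold change, 1 mean log2 expression over both groups and 1 p-value. It holds no value per library or per group, so the levels in single libraries, the overlap of the groups and the sequencing depth are unknown here. The table does not name the numerator of its fold changes. A published study, not used as data here, found miR-155 raised in vesicles of obese macrophages, and the authors' deposited table has mir-155 on the positive side (log2 fold change 4.41, adjusted p = 0.00205). If that report holds here, positive values mean more in vesicles of obese macrophages, and every direction below holds only relative to mir-155. A hairpin is called here at an adjusted p under 0.05, as the authors adjusted it over all 539 hairpins. In whole vesicle preparations, fewer cells of a type and less RNA per cell cannot be told apart.

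Of the 6 hairpins, mir-511 and mir-690 were called, both on the negative side, the side of the lean group under that report. The other four were not called. Calls made up 5.57% of all hairpins of the authors' deposited table, 3.53% on the negative side (19 hairpins) and 2.04% on the positive side (11 hairpins). Subtracting 0.34 from every fold change (recentring on the 180 hairpins of highest level, whose median this is) turns this split to 25 and 8 and takes the median of all hairpins from 0.09 to −0.25. The excess on the negative side depends on the setting: without hairpins that share 20 bases with another gene there were 6 negative and 9 positive calls, and with a mean log2 expression of at least 3.32 there were 16 of each. At an unadjusted p under 0.05 the same 2 hairpins passed, against 17.6% of all hairpins in the authors' deposited table. The 6 hairpins were grouped with earlier results of these data known, so their count is a description. Their median log2 fold change was −0.36, beside 0.09 over all hairpins of the authors' deposited table. Recentring by 0.34 could turn no sign among the 6, since the positive values, those of mir-223 and mir-150, exceed it.

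**Figure D1:**
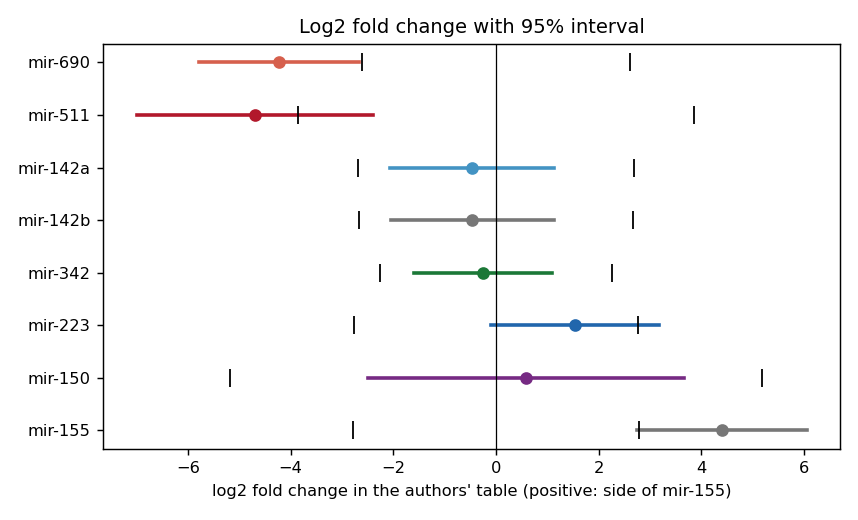
Log2 fold change of each hairpin in the authors' deposited table (dot) with its 95% interval (line), with mir-142b and mir-155 in grey. Short black bars mark the log2 fold change each hairpin needed for a call at its own standard error; mir-690 and mir-511 lie beyond theirs on the negative side and mir-155 on the positive side, while the other four hairpins and mir-142b lie inside.

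The authors' deposited table puts mir-511 at a log2 fold change of −4.70, a 26.0-fold difference, with an adjusted p of 0.0148. Its standard error, the deposited fold change divided by the deposited t, was 1.09, which gives a 95% interval from −7.00 to −2.40, or 5.28-fold to 128-fold. By log2 fold change it was the 7th most negative of the 539 hairpins, and by p it stood 8th among the 19 called on the negative side of the authors' deposited table. Its mean log2 expression of 4.17 placed it 208th of 539 in the authors' deposited table, in the middle one of 3 nearly equal bins by abundance. If both groups counted equally in the authors' fit, with no weights on libraries, this mean and difference place mir-511 at a log2 level of 6.52 in the group on the negative side and 1.82 in the other. The second of these levels is under 2.34, the median over all hairpins in the authors' deposited table. That median is of means over both groups, and the median within 1 group is not known.

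On GRCm38, GENCODE M21 places mir-511 (ENSMUSG00000077897.1) at chr2:14261003-14261081 on the plus strand, in an intron of Mrc1 and on the same strand as that gene, which encodes CD206. No window of 20 bases in its 79-base hairpin occurred in a transcript of another gene outside miRNAs. The rows nearest to it in log2 fold change and mean log2 expression, a likeness over 2 values of 1 comparison, did share such windows. The nearest was mir-682 (log2 fold change −4.80 and mean 3.31 in the authors' deposited table), whose hairpin shares 20 bases with 18 other genes. The next was mir-692-2 (−4.87 and 5.10 in the authors' deposited table), which shares 20 bases with 10. With a Holm adjustment in place of Benjamini-Hochberg, mir-511 was not called (adjusted p = 0.231, in a range from 0.00782 to 0.231 over 7 alternatives).

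For mir-690 the log2 fold change was −4.23 (an 18.7-fold difference) and the adjusted p 0.00192, as the authors' deposited table gives them. Its standard error was 0.74 and its 95% interval ran from −5.78 to −2.67, or 6.35-fold to 55.1-fold. Its t of −5.70 was the most negative of all 539 in the authors' deposited table, although 14 hairpins had a more negative fold change. Its mean log2 expression was 5.02 in the authors' deposited table, 184th of 539 and also in the middle bin. With both groups counted equally and no weights, that places it at a log2 level of 7.13 in the group on the negative side and 2.90 in the other. Calls in the authors' deposited table made up 7.82% of that middle bin and 8.89% of the most abundant one.

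GENCODE M21 places mir-690 (ENSMUSG00000076064.1) at chr16:28599935-28600043 on the minus strand, in an intron of Fgf12, which encodes a fibroblast growth factor family protein. Its hairpin was the 1 among the 6 that shared sequence with other genes, and it is printed for that reason, with the stretch covered by shared windows in capitals.

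mir-690 hairpin: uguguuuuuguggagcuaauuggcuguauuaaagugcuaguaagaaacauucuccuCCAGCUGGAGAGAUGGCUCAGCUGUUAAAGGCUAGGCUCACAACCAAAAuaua

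Of the 90 windows of 20 bases in this hairpin, 26 occurred on the sense strand of transcripts of 44 other genes, 31 of them protein-coding. On the antisense strand, windows of the hairpin occurred in 31 other genes. Only transcripts were searched, so copies elsewhere in the genome were not counted. Sharing on the sense strand was found in 90 of the 531 hairpins with a place in GENCODE M21 (16.9%), and in 11 of the 18 placed hairpins called on the negative side (61.1%), mir-690 among them. In mir-690, up to 16 genes shared 1 window, the one that starts at base 59 of the hairpin, upstream of the mature strand. Other shared windows run into the mature strand or lie within it. The mature strand takes bases 83 to 104, all of them within the stretch in capitals. At least 20 consecutive bases of its 22 occurred in transcripts of 6 other genes, among them Lamp2, a lysosomal membrane protein, Fundc2 and Xpo7, a nuclear export receptor, and all 22 in transcripts of 3. Reads confined to a shared stretch cannot be assigned to mir-690 or these genes by sequence, and their part in the result was not tested. The row nearest to mir-690 in log2 fold change and mean log2 expression was mir-692-3 (−4.30 and 5.28 in the authors' deposited table), which shares 20 bases with 10 other genes. The next was mir-3968 (−3.89 and 5.36 in the authors' deposited table), which shares 20 bases with none.

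**Figure D2:**
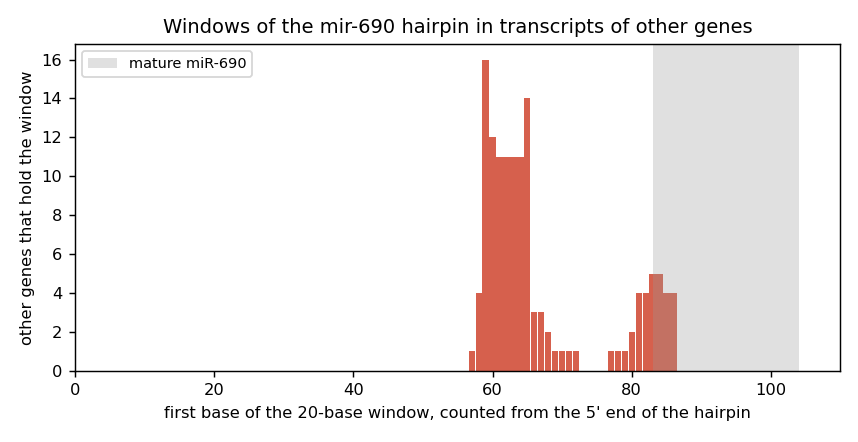
Number of genes other than miRNAs whose transcripts hold each 20-base window of the mir-690 hairpin, by the first base of the window; the grey band marks the bases of mature miR-690. The highest bar stands at 16 genes for the window from base 59, and windows that start within the mature strand occur in fewer genes.

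The myeloid hairpin mir-223 was the most positive of the 6, at 1.54 (2.91-fold) on the log2 scale of the authors' deposited table. It did not pass (adjusted p = 0.307), and its 95% interval from −0.10 to 3.18 runs from a small negative difference to a 9.09-fold positive one. At its standard error of 0.78, a log2 fold change of 2.76 was needed for a call. Its mean log2 expression was 7.62 in the authors' deposited table, 127th of 539. GENCODE M21 places it (ENSMUSG00000076066.1) at chrX:96242817-96242926 on the plus strand, in an exon of the noncoding RNA F630028O10Rik. The rows most like it, mir-582 (1.28 and 7.27 in the authors' deposited table) and mir-1981 (1.09 and 7.67 in the same authors' deposited table), were not called either.

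The authors' deposited table gives the pan-leukocyte hairpin mir-142a a log2 fold change of −0.46 (adjusted p = 0.833), and its 95% interval ran from −2.06 to 1.14. The interval reaches a 4.18-fold difference on the negative side, so a difference of up to that size on that side lies within it. Its mean log2 expression of 9.70 placed it 76th of 539 in the authors' deposited table. The nearest row was its antisense partner mir-142b, at −0.46 with a mean of 9.71 in the authors' deposited table; they differed by 0.0046 in log2 fold change and 0.0070 in mean log2 expression. GENCODE M21 places mir-142a (ENSMUSG00000105196.1) at chr11:87756864-87756927 on the plus strand and mir-142b at chr11:87756841-87756955 on the minus strand, so all 64 bases of mir-142a lie opposite mir-142b. Both lie in an intron of the noncoding RNA Mir142hg, mir-142b on the strand opposite to it. The mature strand of mir-142b is printed because it shows how far the pair overlaps.

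miR-142b: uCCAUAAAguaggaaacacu

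All 20 bases of miR-142b are the reverse complement of a stretch of miR-142a-3p, printed above. The sources used here do not say whether the authors' counting used strand. The rows of mir-142a and mir-142b are therefore taken as 1 measurement, and which strand it came from cannot be told.

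The authors' deposited table puts the lymphocyte hairpin mir-150 at 0.59 (adjusted p = 0.910), and it had the widest interval of the 6, from −2.49 to 3.67. Its standard error was 1.47, the 491st of 539 in rising order, and a log2 fold change of 5.18 was needed for a call, larger than any of the 6 had. Its mean log2 expression of 3.24, the lowest of the 6, placed it 234th of 539 in the authors' deposited table. GENCODE M21 places it (ENSMUSG00000065495.1) at chr7:45121757-45121821 on the plus strand, outside annotated hosts. The hairpin mir-5121 lies within 10 kb of it, and the authors' deposited table has it at 0.84 (adjusted p = 0.825). Nearest in values were mir-450b (0.66 and 3.22 in the authors' deposited table) and mir-1194 (0.80 and 3.37 in the same authors' deposited table).

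The hairpin mir-342 was the most abundant of the 6 and had the smallest deposited difference, although after recentring by 0.34 that of mir-150 was smaller (0.25 against −0.60). Its mean log2 expression was 11.32, 37th of 539, and its log2 fold change −0.26 (adjusted p = 0.910), from the authors' deposited table. Its 95% interval, from −1.60 to 1.08, was the narrowest of the 6 and still spans a 3.03-fold difference on the negative side. A log2 fold change of 2.26 was needed for a call. GENCODE M21 places mir-342 (ENSMUSG00000065436.1) at chr12:108658620-108658718 on the plus strand, in an intron of Evl, which encodes a protein of the actin cytoskeleton. The rows nearest to it were mir-6240 (−0.07 and 11.29 in the authors' deposited table) and mir-16-1 (0.18 and 11.14 in the same authors' deposited table).

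**Figure D3:**
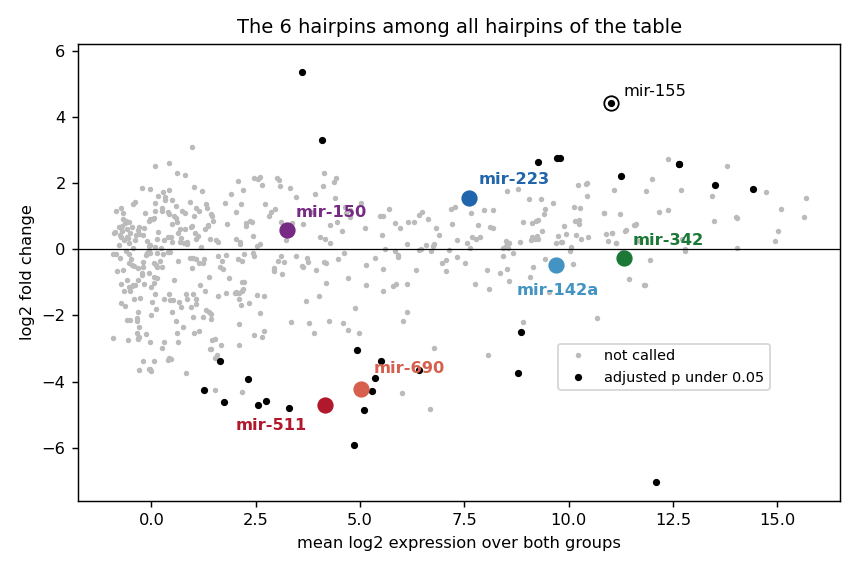
Log2 fold change against mean log2 expression for all 539 hairpins of the authors' deposited table, with called hairpins in black, the 6 hairpins in colour and mir-155 ringed. mir-511 and mir-690 sit together at mean expressions of 4.17 and 5.02 among the called negative hairpins, and the other four lie near the zero line or, for mir-223, above it.

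Ordered by level, as the mean log2 values of the authors' deposited table, they ran mir-342, mir-142a, mir-223, mir-690, mir-511 and mir-150. The hairpins run from 64 to 110 bases and the table is not per length, so this order compares rows of the table and not molecules. The spread of a mean over libraries is not given, and whether neighbours in the order differ was not tested. By log2 fold change, the 95% intervals of the called pair lay mostly apart from those of the others. Calls rest on the same fold changes and standard errors, so this separation partly follows from the split into called and not called. The interval of mir-690 ended at −2.67, below the lower bounds of mir-223, mir-142a, mir-150 (−2.49) and mir-342. The interval of mir-511 ended at −2.40 and overlapped that of mir-150, while it lay below those of mir-223, mir-142a and mir-342. The 4 hairpins that were not called overlapped one another, and so did mir-511 and mir-690. A test between hairpins needs values per library and could not be run.

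Wider lists of miRNAs set the 6 hairpins beside others of the same role. Their calls are to be read beside the 5.57% called over all hairpins. All calls lay in the middle bin (7.82% called) and the most abundant bin (8.89%), so a list of more abundant hairpins has a higher share to be read beside. The alternative activation list had 8 hairpins in the table, and the 2 called, mir-511 and mir-690, were the 2 negative ones. Both were put in the list with their values known, so the list is no independent evidence of their direction. The other six were positive without passing, among them mir-378a, whose 0.02 in the authors' deposited table turned to −0.32 after recentring by 0.34. Their smallest p-values in the authors' deposited table belonged to mir-27a (1.80, adjusted p = 0.0740), mir-125a (1.77, adjusted p = 0.276) and mir-223. The list's median log2 fold change was 0.96 against 0.09 over all hairpins (0.62 against −0.25 after recentring).

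The inflammatory list had 12 of 13 hairpins positive, beside 284 of 539 over the table, and after recentring 11 of 13, with mir-21a turned, beside 221 of 539. This count is a description, as the list was chosen with earlier results known and holds mir-155, which sets the sign. Its copies of mir-9 and of mir-125b are not separate measurements. The mir-9 copies, mir-147 and mir-187 had mean log2 expressions under the table's median of 2.34. The list had a median log2 fold change of 0.95 (0.61 after recentring) and 1 call, mir-155. The authors' deposited table has the feedback regulator mir-146a at 2.11 (adjusted p = 0.183). The myeloid and pan-leukocyte list of 6 hairpins, which holds mir-223 and mir-142a, had the same single call, which sets the sign of the table, and a median of 1.04, or 1.54 with mir-142a and mir-142b counted once. Its most abundant hairpin, mir-22, has 0.54 (adjusted p = 0.629) there, from the authors' deposited table. The lymphocyte list of 8 hairpins, which holds mir-150 and mir-342, had 4 calls, all positive, beside 2.04% positive calls over all hairpins. Its median was 2.44 (2.10 after recentring) and rests on miR-181 hairpins, while the authors' deposited table has mir-150 at 0.59 and mir-342 at −0.26. All 4 calls are copies of miR-181a and miR-181b, which the authors' deposited table puts between 2.57 for mir-181a-1 and 2.75 for mir-181b-2, with mir-181b-1 at 2.74 (adjusted p = 0.00142). The miR-181 miRNAs are also expressed in macrophages. Copies share mature strands, so these 4 are not 4 separate measurements.

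**Figure D4:**
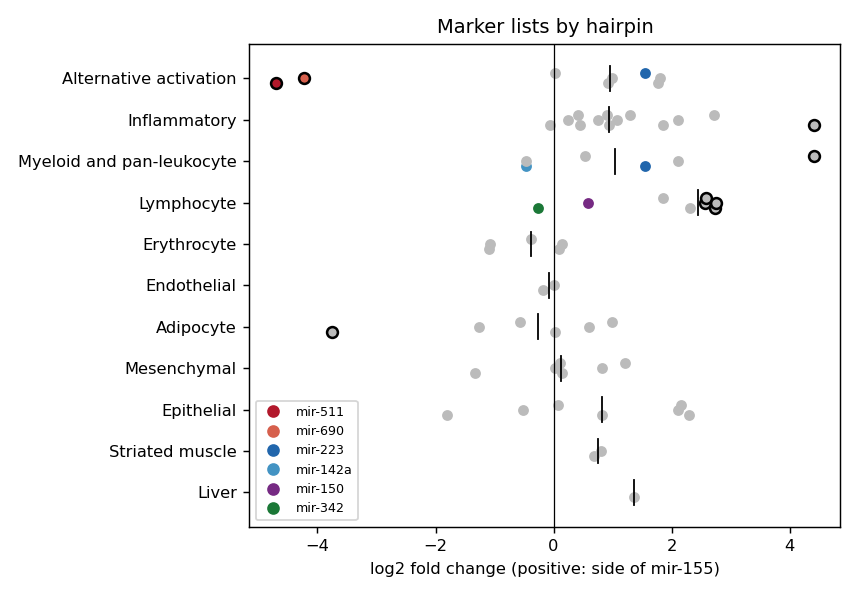
Log2 fold change of every hairpin in each marker list (dots), with the list median as a vertical line, called hairpins outlined in black and the 6 hairpins in colour. In the alternative activation list mir-511 and mir-690 stand at −4.70 and −4.23 while the other six lie above zero, mir-378a by 0.02 and below it after recentring; in the lymphocyte list mir-150 and mir-342 lie below the 4 outlined miR-181 copies.

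Levels of marker hairpins are given as mean log2 values of the authors' deposited table. They cannot check the labelled cell type, since the leukocyte hairpins are not particular to macrophages. The leukocyte hairpins mir-342 (11.32), mir-142a (9.70) and mir-223 (7.62) were well above the table's median of 2.34, and mir-150 (3.24) was nearer to it. Markers of other cells were present as well. The erythrocyte list ran from 4.15 to 11.84, with mir-486b highest, and the endothelial mir-126a was at 6.46 in the authors' deposited table. The mesenchymal list reached 6.59 and the adipocyte list 14.04, the latter through mir-378a, which is also in the alternative activation list. The epithelial list reached 3.62, striated muscle 2.27 and the liver hairpin mir-122 2.15 in the authors' deposited table. Of the 29 hairpins in these 7 lists, 1 was called, beside 5.57% of all hairpins. It was the adipocyte hairpin mir-365-2, which the authors' deposited table puts at −3.75 (adjusted p = 0.0266), on the same side as mir-511 and mir-690. Its copy mir-365-1 stood on the other side, at 0.98 in the authors' deposited table, without a call, and the adipocyte list held 3 positive and 3 negative hairpins. List medians were −0.39 for erythrocyte, −0.08 for endothelial, −0.27 for adipocyte, 0.13 for mesenchymal, 0.82 for epithelial, 0.75 for muscle and 1.36 for liver hairpins, and that of the mesenchymal list turned to −0.21 after recentring. By smallest p the authors' deposited table leads with mir-486a (−1.09) and mir-486b (−1.08) for erythrocytes, mir-126b (−0.18) and mir-126a (0.01, which recentring turned to −0.33) for endothelium, and mir-193a (−1.27) after mir-365-2 for adipocytes. It leads with mir-199a-2 (0.81) and mir-214 (−1.33) for mesenchymal cells, mir-429 (2.30) and mir-200c (2.11) for epithelium, and the copies of mir-133a (0.80 and 0.69) for muscle, all without a call in the authors' deposited table. Levels in each group are unknown, and the part of other cells in the values of the 6 hairpins was not tested.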

How the data were processed

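Small RNA of macrophage exosomes was sequenced in 14 libraries, 7 obese and 7 lean, and RNA was taken up with a miRCURY biofluid kit, per the labels' protocols. Tools named in the submitters' processing notes, with no roles, are Novoalign, Trimmomatic 0.30, limma, edgeR, FastQC and MultiQC. The sources used here do not give the build, annotation, scaling, filters, use of strand or treatment of reads that match several places, which decide how shared reads enter a row.

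The 1 table analysed holds the comparison of the authors, with the columns of a limma result, and 0 columns of values per library. Fold change and mean level are log2 values, per the file headers. The moderated t is a score of the authors, and B a natural log of odds, per the file headers. Both kinds of p-value, raw and adjusted, are the authors', and a Benjamini-Hochberg adjustment of the raw ones over 539 rows gave the adjusted ones. No model was fitted to libraries, depth is unknown, and no counting interval was given. Standard errors are the deposited log2 fold change over t, and 95% intervals use the 17.9 degrees of freedom recovered from t and p. Recovery of the degrees of freedom and the Benjamini-Hochberg calls were tested on simulated data (Python 3.11.15, scipy 1.17.1). The intervals, the levels placed in each group and the recentred values were not tested in this way.

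Hairpins were placed on GRCm38 by symbol in GENCODE M21 (531 of 539), and exact windows of 20 bases were searched in its transcripts; genes that overlap the hairpin were left out. The named rows are the 6 hairpins, mir-155, the members of smallest p in each list, hairpins within 10 kb or with a shared seed, and the 2 rows nearest to each hairpin in log2 fold change and mean log2 expression. List members named for their abundance (mir-22, mir-126a, mir-378a, mir-486b) or as the ends of a range (mir-181a-1), or for a turned or opposite sign (mir-21a, mir-365-1), and the genes Lamp2, Fundc2 and Xpo7, were chosen after their values were seen. The 6 hairpins and the lists were chosen with earlier results of these data known. The mir-124 hairpins were not analysed here.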

Additional observations from a re-analysis of the deposited data

How the results depend on the processing

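Alternatives were recentring by 0.34 (the median log2 fold change of the most abundant 180 hairpins) or by 0.09 (that of all hairpins), 2 minimums of mean log2 expression (3.32 and 2.34), a Holm adjustment, 1 hairpin per stem, leaving out hairpins that share 20 bases with another gene, an adjusted p under 0.1 and a 2-fold minimum. Only the recentrings alter a fold change. Both subtract less than the positive values of mir-223 (1.54) and mir-150 (0.59), so no sign among the 6 hairpins could turn. The count of 2 called hairpins became 1 with the Holm adjustment, where mir-511 (−4.70) had an adjusted p of 0.231, and 1 without hairpins that share 20 bases, which leaves mir-690 out by construction. Elsewhere the adjusted p of mir-511 lay between 0.00782 and 0.0220, and that of mir-690 between 0.000825 and 0.0114 with Holm included. Over all 539 hairpins 30 calls (11 positive, 19 negative) became 11 with Holm (6 and 5). Without hairpins that share 20 bases there were 15 (9 and 6), so the negative excess was lost. The minimum of 3.32 gave 32 calls of 231 hairpins (13.9%), 16 on each side, and that of 2.34 gave 35 of 270 (13%), 16 positive and 19 negative. The 4 lists with roles like those of the 6 hairpins were recounted under the recentrings, the minimums and both thresholds only. There the alternative activation list had 2 or 3 calls, and the inflammatory, myeloid and lymphocyte lists had 1, 1 and 4. The call added to the alternative activation list, under both minimums and at an adjusted p under 0.1, was mir-27a. It lies on the positive side (1.80), opposite to mir-511 and mir-690. Counting mir-142a and mir-142b once, chosen after seeing the data, moved the median of the myeloid list from 1.04 to 1.54. The minimum of 3.32 leaves out mir-150. No paired analysis was possible because values of single libraries are not in the table analysed, and for the same reason no library could be left out.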
